A study of Homo sapiens with 10 samples.

Results

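The genes described here encode the proteins of the mitochondrial ribosome, and they were taken by symbol: every probe set whose single gene symbol in the platform annotation starts with MRPL (large subunit) or MRPS (small subunit) followed by a digit. This gave 51 genes read by 64 probe sets, of 11963 genes read by 19065 probe sets with a single symbol, and the rule itself uses no measured value. There were 31 MRPL genes with 35 probe sets and 20 MRPS genes with 29. Their RNA was measured on 10 Affymetrix hgu133a arrays in the human melanoma line MDA-MB-435. Each of 5 groups had 2 arrays: cells left untreated, cells given hepatocyte growth factor (HGF, the ligand of the MET receptor) for 1, 6 or 24 h, and cells transduced with integrin beta4 (ITGB4). The paper describes the 2 arrays of a group as biological duplicates. All HGF times were compared with the same untreated cells, so time in culture and HGF cannot be told apart. No group is labelled as mock-transduced, although Mock stands in the descriptions of the ITGB4 samples, so transduction itself and ITGB4 cannot be told apart.

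The mitochondrial ribosome makes the few proteins encoded in mitochondrial DNA, all of them subunits of the respiratory chain and ATP synthase. Its RNA comes from mitochondrial DNA, but every one of its proteins is encoded in the nucleus, made on cytosolic ribosomes and imported. Many of these proteins are counterparts of bacterial ribosomal proteins, and others exist only in mitochondrial ribosomes. The subunit in a symbol is not always the subunit in the particle: MRPS30 and MRPS18A sit in the large subunit.

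Values are RMA values, which are log2 probe signals already normalized between arrays, so a difference of 1 is a 2-fold change. A probe set was kept for testing where it reached 7.3 on at least 2 arrays, which held for 10176 of 22215 probe sets and for 52 of the 64 members, read from 46 genes. The kept members were 29 MRPL probe sets of 27 genes and 23 MRPS probe sets of 19 genes. MRPL19, MRPL41, MRPL44, MRPL52 and MRPS18C had no kept probe set. A member is called where its difference between 2 group means had an adjusted p under 0.05 by limma, a linear model fitted to all 10 arrays. The labels were checked against the data: all 8 melanocyte lineage markers measured were kept, with a median of 11.63, while 0 of 4 leukocyte, 2 of 8 epithelial and 2 of 6 fibroblast markers were, and the 3 ITGB4 probe sets had means of 10.41 to 13.10 in transduced cells against 4.77 to 6.64 in untreated cells. In total RNA of a culture, fewer cells expressing a gene and less of its RNA per cell cannot be told apart.

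As a group the members moved little. The median member lay 0.09 and 0.25 above its untreated mean on the 2 arrays at 6 h, and 0.17 and 0.04 above it at 1 h. On the arrays at 24 h it lay at -0.15 and 0.11, so these 2 arrays fell on opposite sides of the untreated mean. The median member difference from untreated cells was 0.16 at 6 h and 0.11 at 1 h, and without HGF 6 h replicate 2 it was 0.09 at 6 h, below that at 1 h. The transduced cells stayed near 0, at 0.00 and -0.02. At 24 h replicate 1 was below replicate 2 in 46 of the 52 members, with a median gap of -0.24, while over all kept probe sets the array medians at 24 h were -0.04 and 0.04. The cause of this gap was not tested. The group with the highest mean was HGF 6 h for 26 members and HGF 1 h for 16. The lowest mean was that of the transduced cells for 19 members and of HGF 24 h for 16. Between their lowest and highest group mean the members spanned a median of 0.39, and MRPS12 spanned the most, 1.23.

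**Figure D1:**
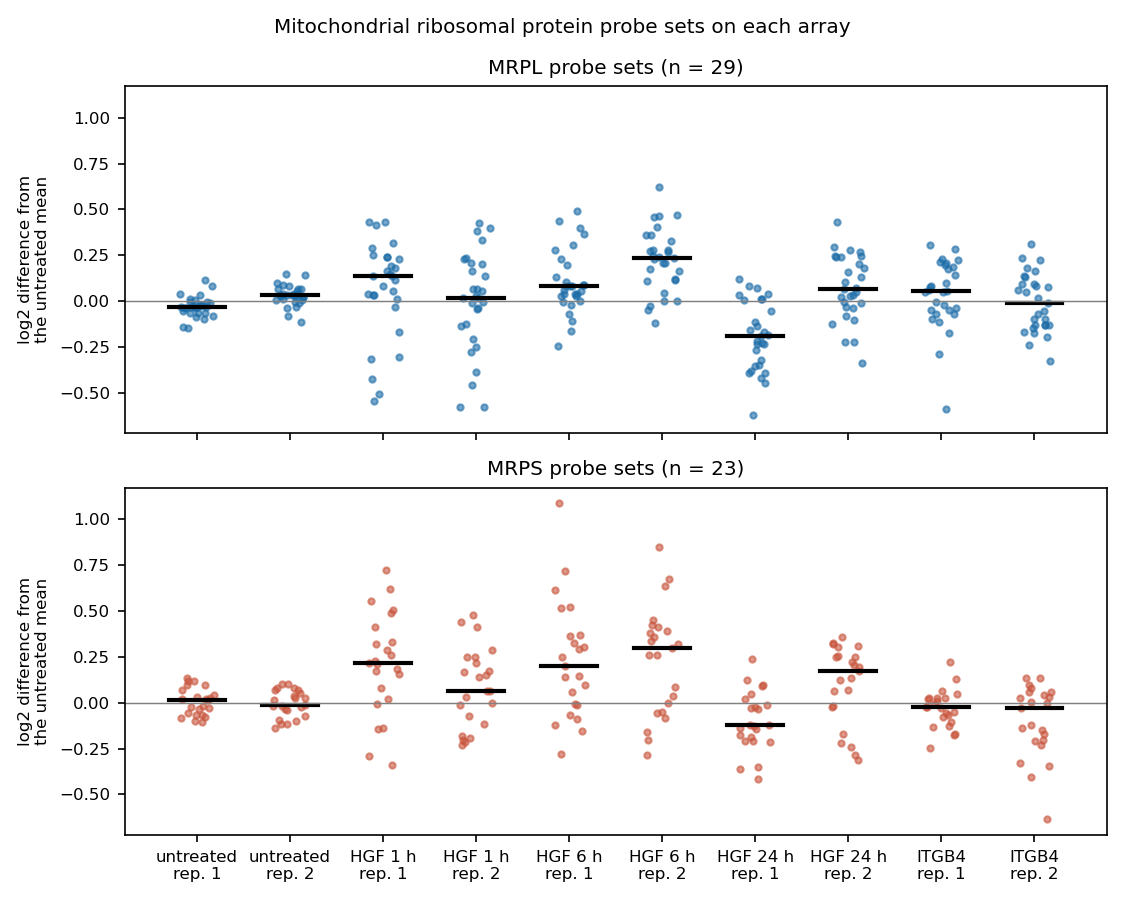
Each point is a kept member probe set, with the 10 arrays along the horizontal axis and the log2 difference from its mean in untreated cells on the vertical axis, and the bar is the median, for MRPL (top) and MRPS (bottom). The medians are highest on the second HGF 6 h array, and the 2 HGF 24 h arrays lie on either side of 0.

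After 1 h of HGF, a small subunit protein gene was higher and 2 large subunit protein genes were lower. With 1 of 52 members higher and 2 lower, 5.77% were called, close to the 5.67% called over all 10176 probe sets, of which 0.58% were higher and 5.09% lower. MRPL42, a large subunit protein without a bacterial counterpart, went from 9.75 and 9.67 in untreated cells to 9.17 and 9.14 at 1 h. Both arrays at 1 h lay below all other arrays, and the difference was -0.56 (SE 0.11, limma adjusted p = 0.0257). MRPL39, another protein of the large subunit found only in mitochondrial ribosomes, went from 9.41 and 9.45 to 8.92 and 8.85, a difference of -0.54 (SE 0.13, limma adjusted p = 0.0424). MRPS12 was the member that was higher, by 0.60 (SE 0.15, limma adjusted p = 0.0449) on probe set 210008_s_at. Its other kept probe set, 204331_s_at, differed by 0.39 (SE 0.14, limma adjusted p = 0.123) and was not called. On 210008_s_at the call was lost in 13 of 20 alternatives. Among these were median centring, cyclic loess scaling, a mean per gene and the spread of only the 2 compared groups. The call of MRPL39 was lost in 9 of the 20 and that of MRPL42 in 6. No call remained without either array of the untreated cells, without HGF 1 h replicate 1, or without either HGF 6 h array, which enter the shared spread. Fewer of all probe sets were called in these settings too.

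The remaining members at 1 h gave differences between -0.39 (MRPL48) and 0.48 (MRPS18A), none of them called. Of the 52, 39 lay above 0, which is 75%, against 57.8% of all kept probe sets. The median difference was 0.09 for MRPL and 0.16 for MRPS, beside 0.06 over all kept probe sets. Without HGF 1 h replicate 1 these medians were 0.02 and 0.07. That for MRPL was 0.06 without untreated replicate 1 and 0.14 without replicate 2 of either group, and with cyclic loess scaling the medians were 0.03 and 0.10.

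After 6 h, MRPS12 and MRPS17 rose, both of them genes of the small subunit. With 3 probe sets of 52 higher and 0 lower, 5.77% of the members were called, against 6.21% of all probe sets, 3.88% higher and 2.33% lower. MRPS12 is the counterpart of bacterial S12, which lies at the decoding centre, where the codon is read. On 210008_s_at its values were 7.51 and 7.23 in untreated cells, 8.09 and 7.85 at 1 h, 8.46 and 8.22 at 6 h, 7.23 and 7.43 at 24 h, and 7.20 and 7.02 in transduced cells. On 204331_s_at they were 10.02 and 9.87, then 10.43 and 10.23, 10.67 and 10.62, 9.74 and 10.08, and 9.87 and 9.74 in the same order. On both probe sets the arrays at 6 h were the highest of the 10, those at 1 h came next, the 24 h arrays overlapped the untreated ones, and both transduced arrays lay below both untreated arrays. Against untreated cells the difference at 6 h was 0.97 (SE 0.15, limma adjusted p = 0.00850), a 1.96-fold rise, on the first and 0.70 (SE 0.14, limma adjusted p = 0.0205), a 1.62-fold rise, on the second. A further MRPS12 probe set, 204330_s_at, was not kept, and its means were 6.60 in untreated cells, 6.96 at 1 h, 7.38 at 6 h, 6.67 at 24 h and 6.64 in transduced cells. Another that was not kept, 213840_s_at, had means of 5.88 in untreated cells, 5.97 at 1 h and 5.92 at 6 h. Its means were 5.82 at 24 h and 5.63 in transduced cells, so it was not highest at 6 h.

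MRPS17, the counterpart of bacterial S17, which binds the RNA of the small subunit, went from 8.87 and 8.83 in untreated cells to 9.37 and 9.30 at 6 h. Its difference was 0.49 (SE 0.13, limma adjusted p = 0.0498), just past the threshold, and in 12 of 20 alternatives it was not called (limma adjusted p from 0.0135 to 0.237 over the 20). Among these were median centring, cyclic loess scaling, no filter and leaving out either array at 24 h. Both arrays at 6 h lay above all others. No member call at 6 h remained when either HGF 6 h array or untreated replicate 2 was left out, and fewer did without untreated replicate 1. Fewer of all probe sets were called in these settings too. The direction of the 3 called differences did not change.

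No other member was called at 6 h. The nearest were MRPL9 (211594_s_at, 0.41, limma adjusted p = 0.0555), MRPS2 (0.63, limma adjusted p = 0.0644) and MRPL15 (0.45, limma adjusted p = 0.0686). Of the 52 members 43 lay above 0, which is 82.7%, against 52.1% of all kept probe sets. At an unadjusted p under 0.05 by limma, 15 were higher (28.8%) and 0 lower, against 13.5% higher and 9.68% lower of all probe sets. The median difference was 0.16 for MRPL and 0.23 for MRPS, beside 0.01 over all kept probe sets, and the median SE of a member probe set was 0.14. Without HGF 6 h replicate 2 the MRPL median was 0.08 and the MRPS median 0.20, and with no filter the MRPS median was 0.15. Without MRPS12 the median over the other 50 members was 0.16.

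**Figure D2:**
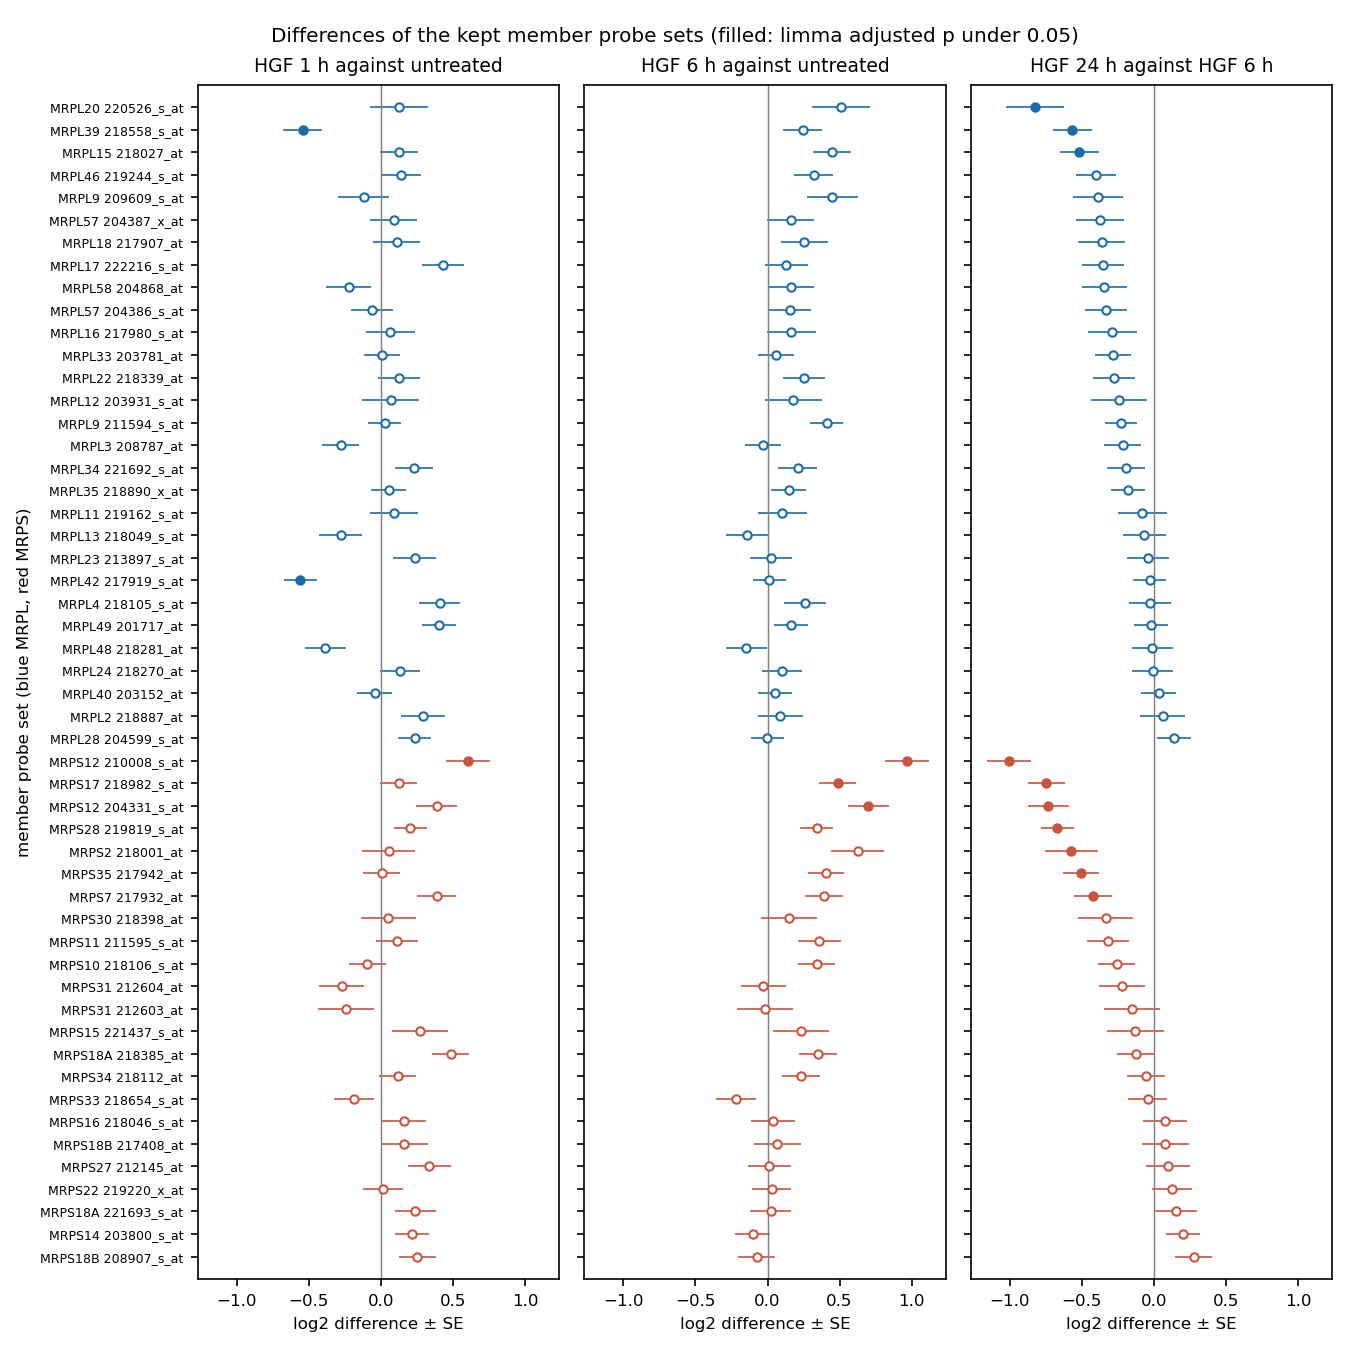
Log2 difference ± SE (horizontal axes) of each of the 52 kept member probe sets (vertical axis, MRPL in blue and MRPS in red) in 3 comparisons, with filled points for an adjusted p under 0.05 by limma. MRPS12 lies farthest out at 6 h, at 0.97, and between 24 and 6 h, at -1.00, and most MRPL and MRPS points lie above 0 in the middle panel and below 0 in the right one.

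The comparison with the most calls was that between 24 and 6 h, in which 9 member genes fell. With 10 probe sets of 52 lower and 0 higher, 19.2% of the members were called, against 19.5% of all probe sets, 12.5% lower and 6.95% higher. By name 7 of the 10 belonged to MRPS genes (30.4% of the 23 MRPS probe sets) and 3 to MRPL genes (10.3% of the 29). The difference between the subunits was not tested, and the median difference was larger for MRPL, -0.23, than for MRPS, -0.15. Over all kept probe sets the median was -0.01. The MRPL median was -0.12 when HGF 24 h replicate 1 was left out, and -0.15 when it was replicate 2 at 6 h. Only 10 of the 52 members lay above 0, which is 19.2%, against 48.7% of all kept probe sets.

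MRPS12 fell by 1.00 (SE 0.15, limma adjusted p = 0.00234), or 2.01-fold, on 210008_s_at and by 0.73 (SE 0.14, limma adjusted p = 0.00661) on 204331_s_at. MRPS17 went from 9.37 and 9.30 at 6 h to 8.64 and 8.53 at 24 h, a fall of 1.68-fold (limma adjusted p = 0.00403). MRPS28, a small subunit protein, went from 9.77 and 9.80 to 9.03 and 9.20, and its 24 h arrays were the lowest of all 10 (difference -0.67, SE 0.11, limma adjusted p = 0.00389). These genes, with MRPS12 on 210008_s_at, were called in the same direction under all 19 alternatives tried for this comparison, those without an array included.

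The other small subunit genes that fell are MRPS2, MRPS35 and MRPS7. MRPS2, counterpart of bacterial S2, had 9.22 and 9.24 at 6 h and 8.46 and 8.85 at 24 h, a difference of -0.57 (limma adjusted p = 0.0487). MRPS35, which has no bacterial counterpart, had 9.95 and 9.73 at 6 h and 9.26 and 9.41 at 24 h, a difference of -0.51 (limma adjusted p = 0.0181). MRPS7, counterpart of a protein that organizes the head of the small subunit, had 10.19 and 10.24 at 6 h and 9.64 and 9.94 at 24 h, a difference of -0.42 (limma adjusted p = 0.0486). MRPS2 was not called in 10 and MRPS7 in 13 of the 19 alternatives, no filter and median centring among them. In each of the 3 genes the lower of the 6 h arrays was above the higher of the 24 h arrays.

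Among large subunit genes, MRPL20, MRPL39 and MRPL15 fell. MRPL20, the counterpart of a bacterial protein needed early in the assembly of the large subunit, had 9.50 and 9.72 at 6 h and 8.48 and 9.09 at 24 h. Its difference of -0.83 (SE 0.20, limma adjusted p = 0.0172) was the largest of the MRPL genes, and its 24 h arrays had an SD of 0.43. MRPL39 had 9.56 and 9.79 at 6 h and 9.01 and 9.21 at 24 h (difference -0.57, limma adjusted p = 0.0156). MRPL15, counterpart of bacterial L15, had 10.44 and 10.35 against 9.77 and 9.98 (difference -0.52, limma adjusted p = 0.0217). Fewer members were called without any single array other than HGF 24 h replicate 2. The fewest were called without HGF 6 h replicate 2 or without HGF 24 h replicate 1, the lower of the arrays there. Of all probe sets, more were called without an array of the transduced cells or of the HGF 1 h group. Without an array of the other groups, fewer of all probe sets were called. Over the 19 alternatives the MRPL20 difference ran from -1.13 to -0.52. That of MRPL39 ran from -0.68 to -0.45 and that of MRPL15 from -0.62 to -0.42.

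**Figure D3:**
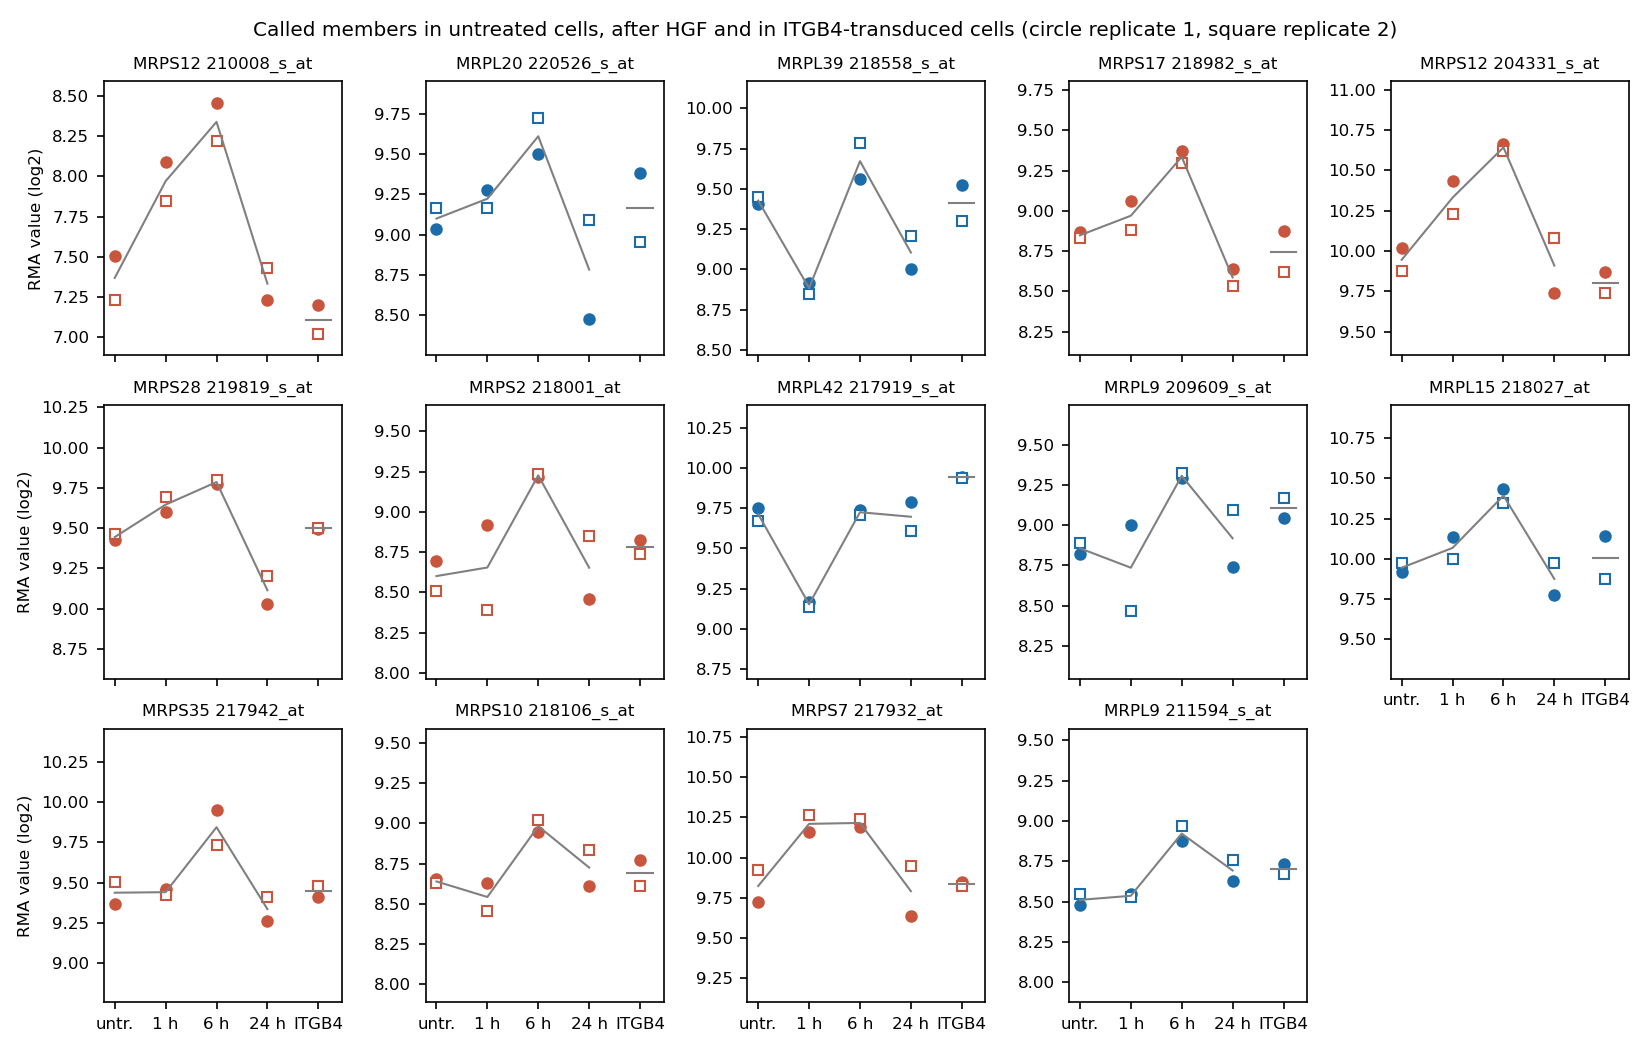
RMA values (log2, vertical axes, each spanning the same range) of the 14 member probe sets called in at least 1 comparison, in the 5 groups (horizontal axes), with a circle for replicate 1, a square for replicate 2, and a grey line for the means. The HGF 6 h mean is the highest of the HGF time course in each panel, and only MRPL42 is nearly as high at 24 h, at 9.70 against 9.72. Each panel was picked by a call in a comparison that holds the 6 h arrays, so this follows in part from the choice. Of all 52 kept members, 26 had their highest mean of the 5 groups at 6 h.

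Between 6 and 1 h, 6 probe sets of 5 member genes were higher and 0 lower, which is 11.5% of the members, against 18.3% of all probe sets, 11.9% higher and 6.4% lower. MRPL39 rose by 0.79 (SE 0.13, limma adjusted p = 0.00619) and MRPL42 by 0.57 (SE 0.11, limma adjusted p = 0.00978), from the low values at 1 h given above. MRPL42 had 9.74 and 9.71 at 6 h, inside the range of its untreated arrays. MRPL9, counterpart of bacterial L9, rose on both of its probe sets. On 211594_s_at it had 8.55 and 8.53 at 1 h and 8.87 and 8.97 at 6 h (difference 0.39, limma adjusted p = 0.0392). On 209609_s_at it had 9.00 and 8.47 at 1 h (SD 0.38) and 9.29 and 9.32 at 6 h (difference 0.57, limma adjusted p = 0.0459).

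The small subunit genes called here were MRPS10, with 8.63 and 8.45 at 1 h and 8.94 and 9.02 at 6 h (difference 0.44, limma adjusted p = 0.0384), and MRPS35, with 9.46 and 9.42 against 9.95 and 9.73 (difference 0.40, limma adjusted p = 0.0469). MRPS10 is the counterpart of bacterial S10. Over the 19 alternatives for this comparison, the call of MRPS35 was lost in 10 and that of MRPS10 in 9. For MRPL9 the call was lost in 10 on 211594_s_at and in 9 on 209609_s_at. No filter and median centring were among these for each of the 3 genes. The call of MRPL42 was lost in 3 and that of MRPL39 in 2. The medians were 0.11 for MRPL, 0.10 for MRPS and -0.02 over all kept probe sets. The MRPL median was 0.07 when HGF 1 h replicate 2 was left out and 0.18 when it was replicate 1 at 6 h, and the MRPS median was 0.04 without HGF 6 h replicate 2. Fewer members were called without any single array of the untreated, HGF 1 h or HGF 6 h groups, and no call remained without HGF 6 h replicate 2. Fewer of all probe sets were called in these settings too.

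Against untreated cells, no member was called after 24 h, when 0% of all probe sets were. At an unadjusted p under 0.05 by limma, 0 members were higher and 2 lower (3.85%), against 3.15% higher and 7.99% lower of all probe sets. Among members whose arrays did not overlap between the groups, the largest differences upward were those of MRPS18A (0.22), MRPS18B (0.20) and MRPL9 (0.18). Downward they were those of MRPS28 (-0.33), MRPL39 (-0.32) and MRPS33 (-0.26). The lowest adjusted p of any member was 0.400. The medians, -0.06 for MRPL and 0.05 for MRPS, changed sign with the array left out: without HGF 24 h replicate 1 they were 0.07 and 0.17, and without replicate 2 they were -0.19 and -0.12.

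In transduced cells no member was called either, where 0.0491% of all probe sets were (5 of 10176, all higher). At an unadjusted p under 0.05 by limma, 0 members were higher and 2 lower (3.85%), and of all probe sets 3.72% were higher and 2.35% lower. The largest differences of members without overlap were those of MRPS31 (-0.44), MRPL2 (-0.39) and MRPS12 (-0.26, on 210008_s_at, whose mean of 7.11 in transduced cells lay under 7.3) and, upward, MRPL9 (0.25), MRPL42 (0.23) and MRPL13 (0.22). MRPL2 is the counterpart of bacterial L2, a protein near the peptidyl transferase centre, and had 9.07 and 9.47 in transduced cells against 9.63 and 9.70. MRPS31 had 8.82 and 8.43 against 9.09 and 9.05. The lowest adjusted p was 0.670, and the medians were 0.02 for MRPL and -0.06 for MRPS, and both changed sign with the array left out.

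Where a gene had 2 kept probe sets they were compared, which was possible for 6 genes. For MRPS12 they differed in a call at 1 h only. For MRPL9 the signs were opposite at 1 h (-0.12 and 0.03), and for MRPL57 at 1 h (-0.06 and 0.09) and in transduced cells (0.01 and -0.13). MRPS18B differed in sign at 6 h (-0.07 and 0.07) and MRPS18A between 24 and 6 h (-0.13 and 0.15). None of these opposite values was called. Of the kept member probe sets 28 carry the suffix _s_at and 3 the suffix _x_at, which mark probes shared between transcripts or with other sequences.

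The mitochondrial ribosome has 3 proteins related to bacterial S18, encoded by MRPS18A, MRPS18B and MRPS18C. MRPS18A on 218385_at had 8.74 and 8.95 in untreated cells, 9.40 and 9.26 at 1 h and 9.21 and 9.18 at 6 h. At 1 h its difference was 0.48 (limma adjusted p = 0.0548). On its other kept probe set, 221693_s_at, the difference at 1 h was 0.24, and the arrays of these groups overlapped. MRPS18B on 208907_s_at had 9.86 and 9.93 in untreated cells, 10.18 and 10.11 at 1 h and 9.83 and 9.81 at 6 h. Its 6 h arrays lay below those of both other groups on this probe set. On 217408_at they did not, with 9.31 and 9.41 in untreated cells, 9.62 and 9.42 at 1 h and 9.24 and 9.62 at 6 h. Neither gene was called in any comparison. MRPS18C was not kept, with means of 3.13 to 3.36.

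Proteins of this ribosome that go by other symbols gave 3 measured genes. They are DAP3, a GTP-binding protein of the small subunit, PTCD3, also of the small subunit, and GADD45GIP1, of the large subunit. None was called in any comparison. The largest difference was that of GADD45GIP1 between 6 and 1 h, 0.34 (SE 0.14, limma adjusted p = 0.123), with 8.16 and 8.08 at 1 h and 8.31 and 8.60 at 6 h. AURKAIP1 and CHCHD1 were not analysed here, and ICT1 is the older symbol of MRPL58, the release factor-like member that frees stalled chains, which was not called.

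The proteins with a bacterial counterpart and those found only in mitochondria were also counted apart. At 1 h, 31 of 35 probe sets with a bacterial counterpart lay above 0 (median 0.13), and 8 of 17 of the mitochondria-specific ones did (median -0.05), the latter including both called decreases. At 6 h the numbers were 30 of 35 (median 0.21) and 13 of 17 (median 0.15). Between 24 and 6 h, 8 of 35 (22.9%) and 2 of 17 (11.8%) were called, all lower, beside 12.5% of all probe sets. These shares were not tested against each other.

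Other genes of mitochondrial gene expression were taken from lists, to be read beside the 3.88% of all probe sets that were higher at 6 h. At 6 h, 1 of 19 probe sets of mitoribosome assembly factors was called, FASTKD2, which binds mitochondrial ribosomal RNA (0.71, limma adjusted p = 0.0354), with a median of 0.30. Factors of mitochondrial DNA and RNA gave 1 of 21, the helicase TWNK (0.62, limma adjusted p = 0.0295), with a median of 0.26. Protein import gave 5 of 26 from 3 genes, with a median of 0.30: the inner membrane channel subunit TIMM17A (0.84), the import motor partner GRPEL1 (0.76) and the outer membrane pore TOMM40 (0.74). All of these were higher. None was called among 5 probe sets of mitochondrial translation factors, 9 of mitochondrial aminoacyl-tRNA synthetases, 89 of nuclear respiratory chain subunits (median 0.01) or 78 of cytosolic ribosomal proteins (median -0.03). In a list of nucleolar proteins that build the cytosolic ribosome, 15 of 28 were higher and 0 lower, with a median of 0.57, among them NOP16 (1.12) and NOP2 (1.04).

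Between 24 and 6 h, when 12.5% of all probe sets were lower, the lists differed in their counts. Of the assembly factors 2 of 19 (10.5%) were lower, FASTKD2 (-1.28, limma adjusted p = 0.00146) and the helicase DDX28 (-0.74, limma adjusted p = 0.00727). Of the DNA and RNA factors 6 of 21 (28.6%) were lower, among them TFAM, which packages mitochondrial DNA and starts its transcription (-1.19 on 1 of its 3 called probe sets), the elongation factor TEFM (-0.72) and TWNK (-0.66). Import gave 9 of 26 lower (34.6%) and the nucleolar list 20 of 28 (71.4%), while 0 of 5 translation factor probe sets (median 0.01) and 0 of 78 cytosolic ribosomal protein probe sets (median 0.07) were called and 1 of 89 respiratory chain probe sets was higher and 3 lower. The aminoacyl-tRNA synthetases gave 1 of 9 lower (11.1%), CARS2 (-0.50, limma adjusted p = 0.0321), with a median of 0.12. At 1 h 5.09% of all probe sets were lower and 0.58% higher. Of the DNA and RNA factors 2 of 21 were lower, TFAM on 1 of its probe sets (-0.92) and TEFM (-0.62). The translation factors gave 1 of 5 lower, the initiation factor MTIF2 (-0.72). Of 89 respiratory chain probe sets 1 was lower, the complex I subunit NDUFA5 (-1.22), and 1 higher, NDUFS3 of the same complex (0.59). No probe set of the remaining lists was called at 1 h.

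**Figure D4:**
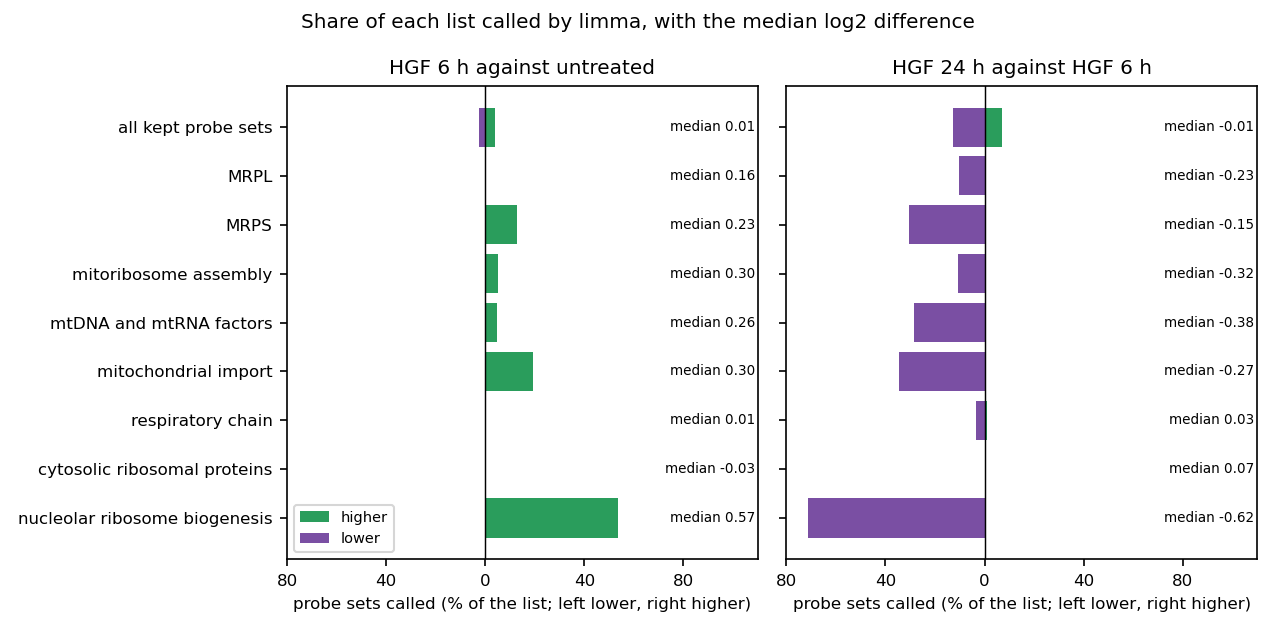
Share of the probe sets of each list called by limma (horizontal axes, %, higher to the right and lower to the left), with the list's median log2 difference printed at the right, after 6 h of HGF against untreated cells and after 24 h against 6 h. MRPS reaches 13.0% higher and 30.4% lower, MRPL 0% and 10.3%, and all kept probe sets 3.88% and 12.5%. The nucleolar list reaches 53.6% and 71.4%, and cytosolic ribosomal proteins 0% in both. The 3 MRPS probe sets higher at 6 h are of 2 genes, and the 7 lower between 24 and 6 h are of 6. MRPS12 counts by 2 probe sets in both.

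The promoters of members that fell between 6 and 24 h are shown because these members share that difference. RefSeq promoters (GRCh38.p14) were matched to 45 of the 51 genes, 7 of them among the 9 that fell. The 150 bases before the start are printed for the 3 largest differences among them, 5′ to 3′ on the strand of the gene, in lower case with an ETS motif in capitals. They lie at chr19:38930794-38930943 (MRPS12, + strand), chr1:1407294-1407443 (MRPL20, - strand) and chr7:55951727-55951876 (MRPS17, + strand).
MRPS12: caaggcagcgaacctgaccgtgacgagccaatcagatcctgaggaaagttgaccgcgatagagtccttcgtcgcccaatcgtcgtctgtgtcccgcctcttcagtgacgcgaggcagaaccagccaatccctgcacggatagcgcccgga
MRPL20: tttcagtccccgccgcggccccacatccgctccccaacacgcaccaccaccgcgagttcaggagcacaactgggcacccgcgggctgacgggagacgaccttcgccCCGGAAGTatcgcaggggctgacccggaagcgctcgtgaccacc
MRPS17: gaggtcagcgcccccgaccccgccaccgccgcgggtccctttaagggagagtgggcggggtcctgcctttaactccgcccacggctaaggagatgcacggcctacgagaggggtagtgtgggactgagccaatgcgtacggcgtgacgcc

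In the 250 bases before the start, on both strands, 4 motifs were looked for: CACGTG, the E-box that MYC can bind, CCGGAAGT, an ETS motif of the GABPA kind, CGCATGCG, the core of the NRF1 motif, and AAGATGGC, the motif of YY1. The E-box was present in 3 of 45 members (6.67%) and in 6.49% of all 27305 promoters. The ETS motif was present in 4 members (8.89%) and 3.64% of all promoters, the NRF1 core in 3 (6.67%) and 1.86%, and the YY1 motif in 2 (4.44%) and 1.37%. Of the 7 promoters of genes that fell, that of MRPL20 held the ETS motif 44 bases before the start and that of MRPS12 held the YY1 motif 212 bases before it, which is outside the stretch printed, and none held the E-box or the NRF1 core. A match only says that these letters are present.

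In the same annotation 11 members start within 1000 bases of a protein-coding gene that runs the other way. In 1 pair both genes are members: MRPL46 and MRPS11 start 320 bases apart, and at 6 h they differed from untreated cells by 0.32 (SE 0.14) and 0.36 (SE 0.15), and between 24 and 6 h by -0.40 (SE 0.14) and -0.32 (SE 0.15), none of these called. MRPS12 starts 181 bases from SARS2, the mitochondrial seryl-tRNA synthetase. SARS2 differed by 0.27 at 1 h, 0.18 at 6 h and 0.12 between 24 and 6 h (SE 0.16 each, limma adjusted p of 0.292, 0.549 and 0.644), where MRPS12 on 210008_s_at differed by 0.60, 0.97 and -1.00. The difference between these neighbours was not tested.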

How the data were processed

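Expression was analysed on 10 arrays (5 groups of 2). RMA, run by the authors with affy per the labels, gave the deposited log2 values, which span 2.19 to 14.28 with array medians of 6.81 to 6.88. Groups were compared with limma 3.58.1 (R 4.3.3) using a mean per group over all arrays, 5 residual degrees of freedom, a prior of 5.94 degrees of freedom and an SD of 0.144, and Benjamini-Hochberg adjustment over the 10176 kept probe sets (7.3 or more on at least 2 arrays, in place of the authors' presence calls). The 68 control probe sets were left out. Probe sets with several symbols (1043) or none (2107) were tested and not named. With 2 arrays against 2, an exact permutation test of a single value cannot go below p = 0.333 (two-sided). The number of arrays limits the precision, and p-values measure only the spread between these samples.

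Members, lists and motifs were chosen with earlier results of these data known. Named are every called member, the 3 largest differences each way without overlap where fewer than 3 members were called, proteins under other symbols, the S18 paralogs, genes whose probe sets disagree, and at most 4 called genes each way from each other list. The fit was tested on simulated data. Alternatives were cyclic loess, median centring, a filter at 8 or none, a mean per gene, the replicate number as a block, the spread of only those 2 groups that were compared, no prior or one trended and robust, adjustment over 4 comparisons, and leaving out each array. Promoters, gene starts and symbols came from RefSeq tables.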

Additional observations from a re-analysis of the deposited data

Results flagged for a closer look

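The HGF time points differed from each other, by limma's direct test of their difference, for 16 values of member probe sets. Each was called in the report at an adjusted p under 0.05. Between 6 and 1 h 11.5% of the members were called, against 18.3% of all probe sets. Between 24 and 6 h it was 19.2% of the members, against 19.5% of all probe sets. From 1 to 6 h the log2 differences were 0.79 for MRPL39, 0.57 for MRPL42, 0.57 and 0.39 for the 2 probe sets of MRPL9, 0.44 for MRPS10 and 0.40 for MRPS35. From 6 to 24 h they were -1.00 and -0.73 for the 2 probe sets of MRPS12, -0.83 for MRPL20, -0.75 for MRPS17, -0.67 for MRPS28, -0.57 for MRPS2, -0.57 for MRPL39, -0.52 for MRPL15, -0.51 for MRPS35 and -0.42 for MRPS7. All compared arrays of these probe sets, which were picked by their calls, lay apart, and the share of all probe sets that do was not counted. The causes of the differences were not tested.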

How the results depend on the processing

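No called difference of a member changed direction under any alternative tried, while differences and medians near 0 that were not called could change sign with 1 array left out. Without the prior, 0 members were called at 1 h, 0 at 6 h, 1 between 6 and 1 h and 3 between 24 and 6 h. The shares of all probe sets without the prior were 0%, 0.531%, 1.82% and 4.3% in that order. With the spread of the 2 compared groups, 12 members (23.1%) were called at 6 h, against 18.3% of all probe sets. Between 6 and 1 h it was 3 (5.77%), against 19.5%. Median centring gave 1 (1.92%) at 1 h, against 5.14%, and 2 (3.85%) between 6 and 1 h, against 15.8%. No filter gave 3 (4.69%) between 6 and 1 h, against 9.44%. Adjustment over 4 comparisons gave 1 (1.92%) at 1 h, against 2.58%. Leaving out each array in turn gave 0 to 4 called members at 1 h, 0 to 4 at 6 h, 0 to 0 at 24 h and 0 to 0 in transduced cells, 0 to 7 between 6 and 1 h and 3 to 13 between 24 and 6 h. The share called of all probe sets changed with the array left out too, and the causes were not tested. With the replicate block the counts were 3 at 1 h, 4 at 6 h, 0 at 24 h, 0 in transduced cells, 8 between 6 and 1 h and 10 between 24 and 6 h. The shares of all probe sets were 7.82%, 8.86%, 0%, 0.0688%, 22.1% and 22.6% in that order. The labels do not say that a replicate number marks a shared day or batch, and the correlation of replicate differences between groups ran from -0.14 to 0.46. The smallest difference of a called member was 0.39, and signal near background limits the 12 members that were not kept. On the kept MRPS12 probe set 210008_s_at, the means of 7.37 in untreated cells and 7.33 at 24 h were close to the minimum of 7.3. Its mean of 7.11 in transduced cells was under that minimum.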
